A study of Mus musculus with 6 samples.

Results

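The 8 genes followed here act in programmed cell death, and their levels were followed through the response of mouse cells to IFN-β (interferon-beta, of type I). They are Xaf1, Xiap, Fas, Casp8, Casp9, Bcl2l11, Bak1 and Bax. They were chosen by name as a set of apoptosis genes, with earlier results of these data known. Their counts, set beside shares of all genes, therefore describe the set and carry no independent weight. A gene's level was read from the probe set (probes summarised to 1 value) that the array annotation assigns to that gene alone. Of the 8 genes, 7 were measured, each by 1 probe set, among 19938 genes measured in all; Bax was not analysed here. Levels came from 6 whole-transcript arrays, 1 each for NIH3T3 embryonic fibroblasts, L929 connective tissue fibroblasts and RAW264.7 macrophages after 4 h of IFN-β, and 1 each for the same lines unstimulated. The series set out to find transcripts that IFN-β regulates. The sources used here do not give the dose of IFN-β, all 3 lines are established mouse lines, and no condition of a line had a replicate array.

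Apoptosis runs along an extrinsic route, in which death receptors such as Fas recruit and activate caspase-8, and an intrinsic route, in which BH3-only proteins such as Bim (Bcl2l11) release the pore-forming proteins Bak (Bak1) and Bax at the mitochondrion, so that caspase-9 is activated on the apoptosome. XIAP, an inhibitor of apoptosis protein, blocks caspases, and XAF1, XIAP-associated factor 1, binds XIAP and counters that block. XAF1 is known as an interferon-induced gene, and type I interferons can sensitise cells to death signals without killing them by themselves.

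Proximal promoter windows are shown for Xaf1, which had the largest response of the 7 genes, for Casp8, whose window holds the same short stretch as that of Xaf1, and for Fas, the death receptor. Each window runs from 250 bases before to 50 bases after an annotated transcript start, is written 5′ to 3′ on the gene's strand and is taken from RefSeq on GRCm38.p6. Capitals mark matches, on either strand, to GAAANNGAAA, the spaced repeat at the core of the interferon-stimulated response element, to GAAANGAAA, the same repeat with 1 base less between its arms, or to TTCNNNGAA, the palindrome that STAT dimers bind.
Xaf1, chr11:72301379-72301678, plus strand: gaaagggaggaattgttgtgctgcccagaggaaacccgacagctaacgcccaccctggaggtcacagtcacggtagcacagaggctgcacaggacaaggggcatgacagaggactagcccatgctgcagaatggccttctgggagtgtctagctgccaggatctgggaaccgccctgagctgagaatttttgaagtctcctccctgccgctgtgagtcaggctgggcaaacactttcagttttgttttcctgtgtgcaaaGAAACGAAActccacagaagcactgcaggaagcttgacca
Casp8, chr1:58802252-58802551, plus strand: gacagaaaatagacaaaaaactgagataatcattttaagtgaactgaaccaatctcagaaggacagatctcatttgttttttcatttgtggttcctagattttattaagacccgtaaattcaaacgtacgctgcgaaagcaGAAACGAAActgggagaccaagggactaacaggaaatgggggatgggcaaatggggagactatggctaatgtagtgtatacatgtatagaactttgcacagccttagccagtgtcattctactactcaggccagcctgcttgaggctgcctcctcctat
Fas, chr19:34290409-34290708, plus strand: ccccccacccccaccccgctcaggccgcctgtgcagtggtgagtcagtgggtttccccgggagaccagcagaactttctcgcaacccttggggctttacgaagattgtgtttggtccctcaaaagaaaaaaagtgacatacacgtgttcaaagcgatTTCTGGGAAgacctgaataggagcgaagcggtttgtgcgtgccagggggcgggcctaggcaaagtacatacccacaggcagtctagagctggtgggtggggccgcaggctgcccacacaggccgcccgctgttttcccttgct

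RefSeq's table held 11 such windows for all 8 genes, Bax included. None of the 11 held GAAANNGAAA, which was present in 3.44% of all 32851 windows. GAAANGAAA was present in 3.17% of all windows and in those of Xaf1 and Casp8, beginning 10 bases after the start of Xaf1 and 109 bases before that of Casp8. TTCNNNGAA was present in 8.3% of all windows and, among the 8 genes, in that of Fas only. In Xaf1 and Casp8 the stretch shared around the match was AGAAACGAAACT, 12 letters that contain the GAAANGAAA match and were taken up after these sequences had been read. The stretch was found on either strand in 6 of the 32851 windows (0.0183%). The other 4 belonged to Ddx58, Helz2, Oas3 and Fyco1, of which 2 rose across the lines by the test described below, against 0.732% of all genes. Ddx58, a sensor of viral RNA, had a mean log2 change of 3.97 and Helz2 one of 2.86. Oas3, an oligoadenylate synthetase, and Fyco1 had mean changes of 1.73 (limma adjusted p = 0.147) and 0.62 (adjusted p = 0.253). The count of 2 was 1 with robust variances, and 0 with robust variances and a trend or without the block. Over all genes the calls went from 146 to 95, 114 and 2 in the same order. A letter match in a window of this length is a description of the sequence and shows no binding.

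The arrays were first checked for cell identity, for response and for scale. The 8 macrophage markers, Lyz2, Tyrobp and Fcer1g among them, had a median log2 level of 10.93 on both RAW264.7 arrays and of 4.13 to 4.36 on the 4 fibroblast arrays, and the 8 fibroblast markers, led by Fn1, Col1a1 and Col1a2, had medians of 8.96 to 10.64 on the fibroblast arrays and of 4.66 and 4.90 on the RAW264.7 arrays. Not every fibroblast marker set L929 apart. Thy1 was at 5.05 and 4.96 in stimulated and unstimulated L929, against 4.66 and 5.11 in stimulated and unstimulated RAW264.7. Postn was at 3.29 and 3.13 against 2.83 and 2.77 in the same order. Epithelial and lymphocyte markers stayed at or below medians of 5.43 on all arrays. All 8 measured interferon-induced genes of a check list rose, among them Ifit1, Ifit3 and Usp18, with mean log2 changes of 6.33, 6.01 and 5.56. Median log2 levels over all probe sets were 4.72 to 4.82 on 5 arrays and 5.05 on that of stimulated NIH3T3, and the median over all genes moved by 0.17 between the NIH3T3 arrays, against -0.05 and -0.03 for L929 and RAW264.7. Small changes in NIH3T3 stand beside that shift.

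Xaf1 was the member that responded strongly, and it did so in each cell line. The log2 level of Xaf1 (probe set 10378068) was 7.75 in stimulated and 4.04 in unstimulated NIH3T3, 8.78 in stimulated and 3.86 in unstimulated L929, and 8.42 in stimulated and 6.15 in unstimulated RAW264.7. Every stimulated array lay above every unstimulated one, as was the case for 2 of the 7 genes and for 4.85% of all genes. The increase was 13.1-fold in NIH3T3, 30.3-fold in L929 and 4.82-fold in RAW264.7. The unstimulated fibroblast levels lay between the lower quartiles (3.34 and 3.36) and the medians (both 4.77) of their arrays, and the files give no detection call, so how far low levels lie above background is not known. In RNA from whole cultures, more responding cells and more RNA per cell cannot be told apart.

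Across the lines Xaf1 rose by a mean log2 change of 3.63 ± 0.38 (limma SE, n = 3 lines), 12.4-fold, with an adjusted p of 0.00134. The test took the 3 lines as replicates, with the cell line as a block, and adjusted over all 19938 genes by the Benjamini-Hochberg method. Between lines the change had an SD of 1.33. The same call was made for 0.732% of all genes. It was lost when the variances were estimated robustly (adjusted p = 0.264), robustly with a trend on level (adjusted p = 0.29), or without the block (adjusted p = 0.817), while the log2 change was 3.63 in each of these fits.

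The unstimulated level of Xaf1 differed more between the lines than the stimulated one. Its range over the lines was 1.03 on the log2 scale with IFN-β and 2.29 without. Unstimulated RAW264.7 stood well above both unstimulated fibroblast lines, whereas stimulated RAW264.7 lay between stimulated L929 and stimulated NIH3T3. The change in RAW264.7 was 2.27 against a mean of 4.31 in the fibroblast lines, a difference of -2.04 ± 0.49 (SE, limma interaction term, adjusted p = 0.019). A smaller change in RAW264.7 was called for 0.155% of all genes and a larger one for 0.0802%. This test had 1 residual degree of freedom and gave every gene the same SE. The spread of Xaf1's own changes in the fibroblast lines (3.71 in NIH3T3 and 4.92 in L929) therefore did not enter its adjusted p. The call was lost with the arrays centred on their medians (-1.88 ± 0.55, SE, adjusted p = 1) and after quantile normalization (-2.20 ± 0.52, SE, adjusted p = 1). In both of these fits limma no longer gave every gene the same variance (9.64 and 7.81 prior degrees of freedom). The scaling and the variance model thus changed together, and which of them ended the call was not tested.

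**Figure D1:**
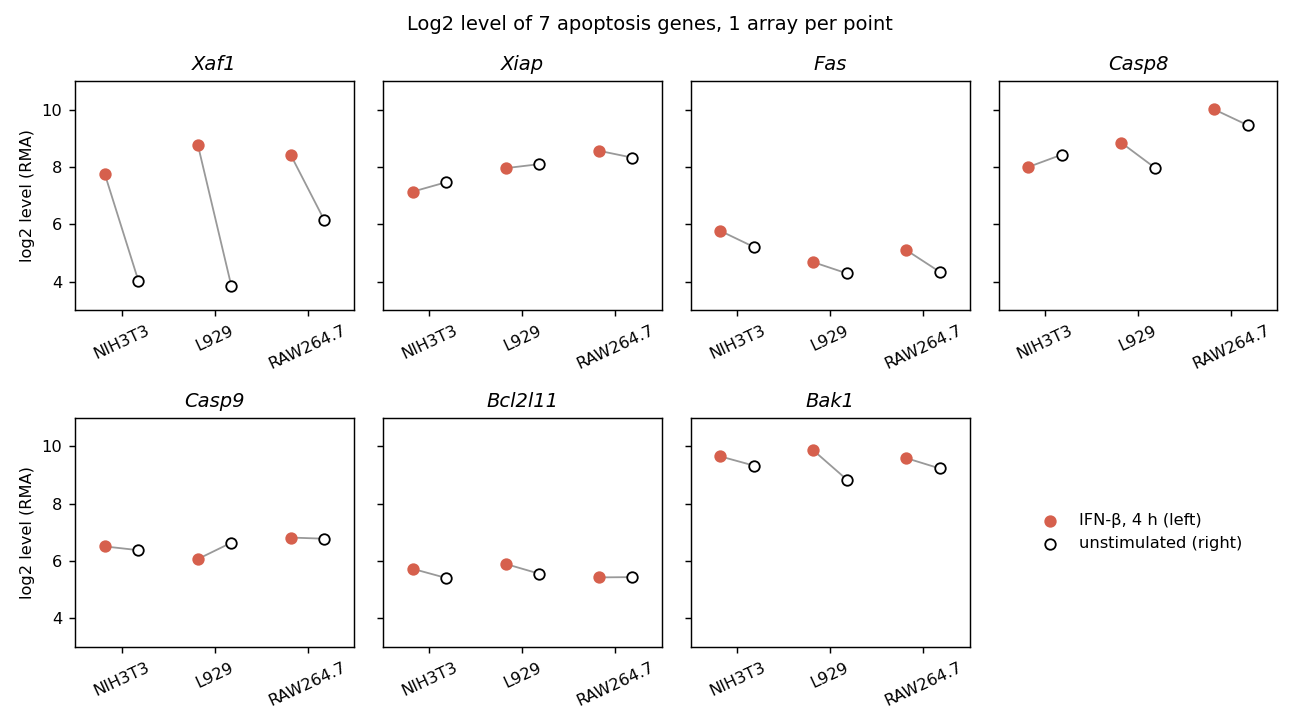
Log2 level (RMA, vertical axis) of the 7 measured apoptosis genes in NIH3T3, L929 and RAW264.7 cells, with 1 array per point. Filled points on the left of each joined couple are cells after 4 h of IFN-β and open points on the right are unstimulated cells; Xaf1 moves by several log2 units, for example 8.78 against 3.86 in L929, whereas no other gene moves by more than 1.02.

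Xiap (probe set 10599369), whose product XAF1 binds, had log2 levels of 7.14 in stimulated and 7.47 in unstimulated NIH3T3, 7.96 and 8.10 in stimulated and unstimulated L929, and 8.57 and 8.33 in stimulated and unstimulated RAW264.7. The groups overlapped, and the order of the lines, with RAW264.7 highest and NIH3T3 lowest, was the same with and without IFN-β. The mean log2 change was -0.08 ± 0.18 (SE, n = 3 lines, limma adjusted p = 0.969). Its sign turned to positive, at 0.05, without the NIH3T3 arrays.

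On the extrinsic route, Fas (probe set 10462603), the death receptor, had log2 levels of 5.77 in stimulated and 5.21 in unstimulated NIH3T3, 4.68 and 4.29 in stimulated and unstimulated L929, and 5.10 and 4.34 in stimulated and unstimulated RAW264.7. It was higher in all 3 lines, by 1.47-fold, 1.31-fold and 1.69-fold in the same order, but stimulated L929 remained below unstimulated NIH3T3. The mean log2 change of 0.57 ± 0.16 (SE, n = 3 lines) had a limma adjusted p of 0.395 and did not pass. How far these levels lie above background is not known either.

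Casp8 (probe set 10346564), the caspase that death receptors activate, split the lines. Its log2 level was 8.0 in stimulated and 8.43 in unstimulated NIH3T3, 8.85 and 7.98 in stimulated and unstimulated L929, and 10.01 and 9.46 in stimulated and unstimulated RAW264.7. It was 1.83-fold higher in L929, 1.46-fold higher in RAW264.7 and 1.35-fold lower in NIH3T3. The log2 change of -0.44 in NIH3T3 stands beside a spread over all genes of 0.35 there (SD estimated from the median absolute deviation). In L929 and RAW264.7 that spread was 0.32 and 0.22. The mean log2 change was 0.33 ± 0.24 (SE, n = 3 lines, limma adjusted p = 0.964), and without the NIH3T3 arrays it was 0.71 (adjusted p = 0.322). Leaving out L929 gave 0.05. Both RAW264.7 arrays lay above all 4 fibroblast arrays.

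On the intrinsic route, Bak1 (probe set 10449303), a pore-forming member of the Bcl-2 family, had log2 levels of 9.65 in stimulated and 9.33 in unstimulated NIH3T3, 9.86 and 8.84 in stimulated and unstimulated L929, and 9.59 and 9.23 in stimulated and unstimulated RAW264.7. All 3 stimulated arrays lay above all 3 unstimulated ones. The increase in L929 was 2.03-fold, and in NIH3T3 and RAW264.7 1.25-fold and 1.28-fold. In NIH3T3 the log2 change of 0.32 was 0.05 with the arrays centred on their medians and 0.36 after quantile normalization. The mean log2 change was 0.57 ± 0.19 (SE, n = 3 lines, limma adjusted p = 0.591), and 0.34 without L929.

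Bcl2l11 (probe set 10475866), which encodes the BH3-only protein Bim, lay within a narrow band. Its log2 levels were 5.73, 5.90 and 5.43 in stimulated NIH3T3, L929 and RAW264.7, against 5.41, 5.56 and 5.44 in the unstimulated lines. Its mean log2 change was 0.22 ± 0.17 (SE, n = 3 lines, limma adjusted p = 0.964). Casp9 (probe set 10510034), the caspase of the apoptosome, had log2 levels of 6.51, 6.07 and 6.82 in stimulated NIH3T3, L929 and RAW264.7, against 6.38, 6.64 and 6.78 in the unstimulated lines. Only in L929 did it differ by more than 0.14, where it was 1.48-fold lower. The mean log2 change was -0.13 ± 0.19 (SE, n = 3 lines, limma adjusted p = 0.967), and it was positive, at 0.09, without L929.

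In all, 1 of the 7 genes rose across the lines and 0 fell (limma, adjusted p under 0.05), against 0.732% of all genes higher and 0% lower. At an unadjusted p under 0.05 the limma fit had 3 of the 7 higher, namely Xaf1, Fas and Bak1, and 0 lower, against 4.2% and 1.27% of all genes. Those 3 were also the ones higher in each of the 3 lines, which held for 15.5% of all genes. With the arrays centred on their medians 4 of the 7 were higher in each line, against 10.6% of all genes. At the 3-fold mark of the series' own description, 1 of the 7 was higher in each line, and that was Xaf1 each time; the shares of all genes in NIH3T3, L929 and RAW264.7 were 0.476%, 0.893% and 0.617%. None of the 7 was 3-fold lower in a line, against 0.0401%, 0.01% and 0% of all genes. The median of the 7 mean log2 changes was 0.33, against 0.03 over all genes. For the 6 genes other than Xaf1, the difference between RAW264.7 and the fibroblast lines ran from -0.34 for Bcl2l11 to 0.48 for Xiap, with an SE of 0.49 and an adjusted p of 1 for each in limma.

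**Figure D2:**
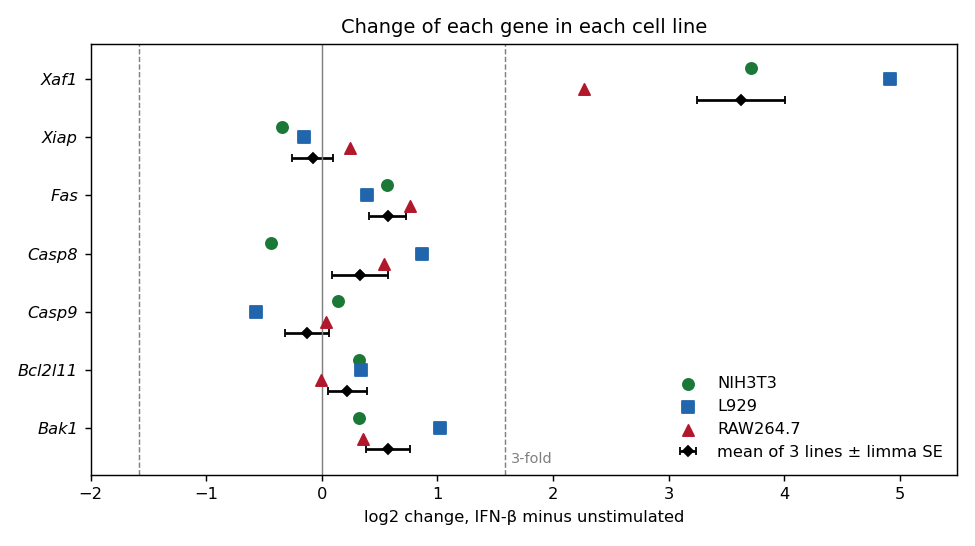
Log2 change (IFN-β minus unstimulated, horizontal axis) of each gene in NIH3T3 (circles), L929 (squares) and RAW264.7 (triangles), with the mean of the 3 lines and its limma SE as black diamonds and bars. Dashed lines mark 3-fold; the 3 points of Xaf1, from 2.27 to 4.92, lie beyond it, and all points of the other genes lie between -0.57 and 1.02.

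The genes whose profile over the 6 arrays came nearest to that of Xaf1 were found from the root mean square distance between log2 levels, each gene centred on its own mean. They were Dtx3l, a ubiquitin ligase, at a distance of 0.16 on the log2 scale, Parp9 at 0.31, Herc6 at 0.33, Oas1b at 0.43 and Dhx58, an RNA helicase, at 0.47. The log2 levels of Dtx3l in NIH3T3, L929 and RAW264.7 were 8.17, 9.05 and 8.71 with IFN-β against 4.48, 4.17 and 6.88 without, changes of 3.69, 4.88 and 1.83, so that it shared the high unstimulated level in RAW264.7. Across the 5 genes the change in L929 was the largest of the 3 and that in RAW264.7 the smallest, as for Xaf1. The choice by likeness favours that order, and the distances describe 6 arrays and carry no test.

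**Figure D3:**
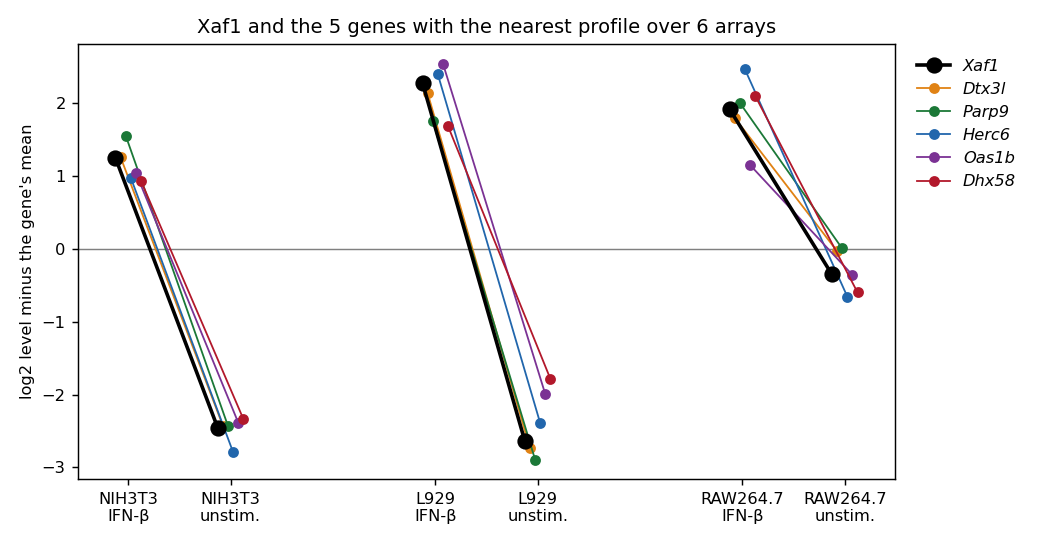
Log2 level of Xaf1 (thick black line) and of the 5 genes with the nearest profile, each minus its own mean over the 6 arrays (vertical axis), by cell line and condition with IFN-β left of unstimulated. The lines join the 2 arrays of a cell line; Dtx3l, at a distance of 0.16, runs closest to Xaf1.

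The wider apoptosis machinery was read from 10 gene lists, also chosen with earlier results known. The lists include genes of other forms of cell death or of inflammation, such as Mlkl and Casp4. Of 64 measured genes in these lists, 5 rose and 0 fell across the lines in limma, against 0.732% of all genes higher and 0% lower. At an unadjusted p under 0.05 the limma fit had 12 higher and 0 lower, against 4.2% and 1.27% of all genes. Their median mean log2 change was 0.06, against 0.03 over all genes. Apart from Xaf1, the genes that rose were Tnfsf10, Daxx, Mlkl and Casp4. The count was 3 after quantile normalization and 3 with robust variances, and 0 without the block. Over all genes the calls went from 146 to 108, 95 and 2 in the same order.

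Among 8 death receptors and ligands, 1 rose and the other 7 did not pass, against 0.732% of all genes called higher. That gene was Tnfsf10, the death ligand TRAIL, with log2 levels of 4.58, 8.44 and 7.65 in stimulated NIH3T3, L929 and RAW264.7 against 3.17, 2.96 and 3.24 in the unstimulated lines. The unstimulated levels lay below the lower quartiles of their arrays (3.34, 3.36 and 3.40), with no known height above background, so the folds that follow are as measured. It was 2.67-fold, 44.7-fold and 21.3-fold higher, and its mean log2 change was 3.77 ± 0.57 (SE, n = 3 lines, limma adjusted p = 0.0122), with an SD between lines of 2.11. The call was lost after quantile normalization (adjusted p = 0.0919) and with robust variances (adjusted p = 0.916, or 0.902 with a trend). Fasl, the ligand of Fas, had a mean log2 change of 0.07 (adjusted p = 0.978).

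Of 9 genes that signal below death receptors, 2 rose, where 0.732% of all genes did. Daxx, a histone chaperone first described as a partner of Fas, rose in each line, with log2 levels of 8.70, 8.48 and 8.43 in stimulated NIH3T3, L929 and RAW264.7 against 6.30, 5.85 and 6.71 in the unstimulated lines (mean log2 change 2.25 ± 0.20, SE, limma adjusted p = 0.000489). Mlkl, the executor of necroptosis, a caspase-independent form of cell death, had levels of 10.32, 11.12 and 9.86 against 9.53, 9.38 and 8.49 in the same order of lines (mean 1.30 ± 0.20, SE, adjusted p = 0.0141), a call that was lost without L929 (1.08, adjusted p = 0.0805). The adaptor Fadd, which links Fas to caspase-8, had a mean log2 change of -0.02 (adjusted p = 0.991).

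Of 8 measured caspases, 1 rose, against 0.732% of all genes. Casp4, the inflammatory caspase-11 of mice, which senses cytosolic lipopolysaccharide, had log2 levels of 6.62, 8.75 and 7.39 in stimulated NIH3T3, L929 and RAW264.7 against 5.66, 6.19 and 6.16 in the unstimulated lines (mean 1.59 ± 0.27, SE, limma adjusted p = 0.028). Its call was lost after quantile normalization (adjusted p = 0.122). Casp12 was 3.30-fold higher in L929, at 7.75 with IFN-β and 6.03 without, but had levels of 7.46 and 7.53 in stimulated and unstimulated NIH3T3 and of 2.68 and 2.51 in stimulated and unstimulated RAW264.7 (mean 0.61, adjusted p = 0.955, and 0.05 without L929).

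In the other lists no gene but Xaf1 passed. Over all genes 0.732% were called higher and 0% lower, so counts of 0 in lists this short lie near that share. At an unadjusted p under 0.05 in limma 4.2% of all genes were higher and 1.27% lower, and their median mean log2 change was 0.03. Of the Bcl-2 family, 0 of 5 protective members, 0 of 2 pore-forming members and 0 of 10 BH3-only members passed in limma, with 0, 1 and 1 higher and none lower at an unadjusted p under 0.05; the lists' median mean log2 changes were -0.15, 0.16 and 0.00. Of 9 inhibitor of apoptosis proteins 0 passed, and the median was 0.18. At an unadjusted p under 0.05 in limma 2 were higher, Naip2 and Naip6, and 0 lower. Neither Xiap nor any Birc gene was among the 2. Among 4 antagonists of these inhibitors Xaf1 was the 1 that rose. Of 5 apoptosome and mitochondrial factors and 5 nuclear regulators 0 and 0 passed in limma, with 0 and 0 at an unadjusted p under 0.05, and the medians were -0.13 and -0.08.

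**Figure D4:**
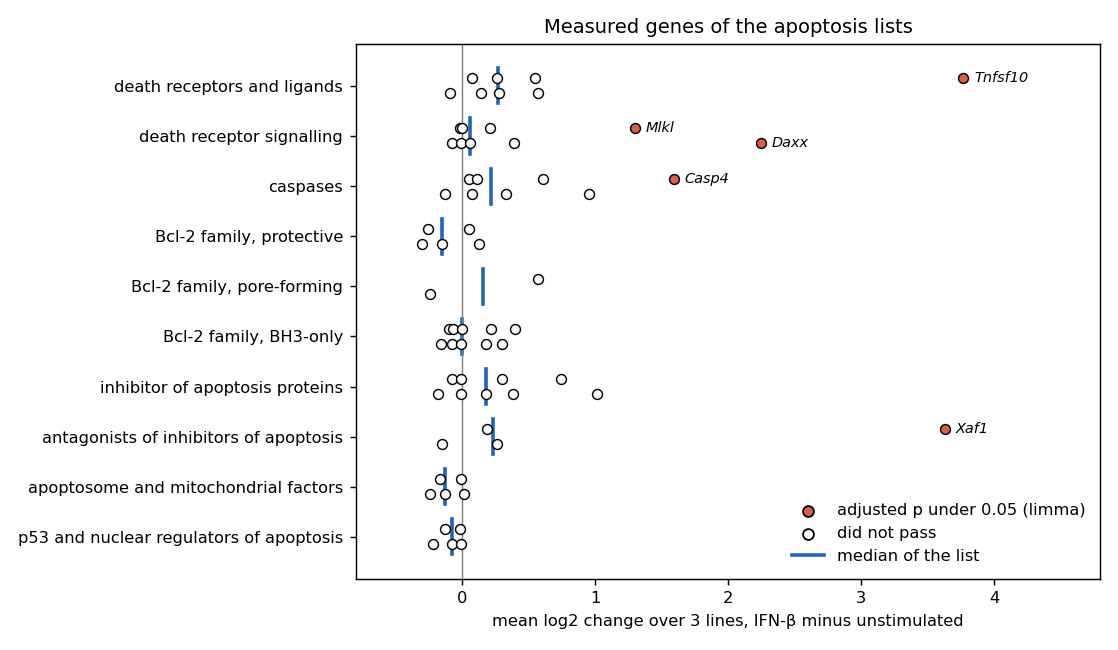
Mean log2 change over the 3 lines (horizontal axis) of each measured gene of 10 apoptosis lists, with filled points for genes past a limma adjusted p under 0.05, open points for the rest and a blue bar at each list's median. The 5 filled points, Tnfsf10, Xaf1, Daxx, Casp4 and Mlkl, lie between 1.30 and 3.77, and list medians lie between -0.15 and 0.27.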

How the data were processed

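Per the labels' protocols, biotin was put on total RNA with the Affymetrix WT kit, and each of the 6 samples had 1 array. The deposited values are log2 levels that the authors made with RMA, per the submitters' processing notes, which give no version. That the logarithm is to base 2 was inferred from a range of 0.88 to 14.74. Genes were read through the 21789 of 35557 probe sets that the array annotation assigns to 1 gene, with symbols checked by Entrez ID (21698 matched), and for the 999 genes with several the brightest was kept. Nothing was filtered. Whether each array came from its own culture is not stated. The p-values across the lines rest on the spread between the 3 lines, moderated toward the typical spread of all genes. The interaction test used a variance common to all genes.

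Within a line a change is the difference of 2 arrays, without a test. The test across lines used limma (version 3.58.1, R 4.3.3) with terms for cell line and treatment, moderated variances with 7.87 prior and 2 residual degrees of freedom, and Benjamini-Hochberg adjustment. Moderation pulls a gene's spread toward the typical one, so the SEs of genes that vary more understate the spread between lines. Among them were Xaf1 (SD between lines 1.33), Tnfsf10 (2.11), Casp4 (0.86), Casp8 (0.68), Mlkl (0.48) and Daxx (0.47). The limma step was tested on simulated data. Stimulated and unstimulated arrays were paired by the cell line they share.

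The members and the gene lists were chosen with earlier results of these data known. Named list genes are those past an adjusted p of 0.05 or 3-fold in any line; for Xaf1, called, the 5 nearest profiles are named; marker and check lists give 3 genes. Ddx58, Helz2, Oas3, Fyco1, Fasl, Fadd, Naip2, Naip6, Thy1 and Postn were named after their values were seen. Other steps ran in Python 3.11.15 with pandas 2.3.3, numpy 2.4.6 and matplotlib 3.10.9. Alternatives covered the probe set per gene, a level filter at 5.32, scaling, the variance model, the block, each line left out and the thresholds.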

Additional observations from a re-analysis of the deposited data

Results flagged for a closer look

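The change of Xaf1 was smaller in RAW264.7 than in the fibroblast lines by the limma interaction term (-2.04, adjusted p = 0.019), the 1 difference between lines among the 7 genes that passed this test. Over all genes only 15.5% were higher and 11.4% lower in each of the 3 lines, so in most a line moved against both others. Among the 7 genes and the list genes called or changed 3-fold, that held for 5, a difference that was not tested. These were Xiap (0.24 in RAW264.7, against -0.34 in NIH3T3 and -0.15 in L929), Casp8 (-0.44 in NIH3T3, against 0.87 in L929 and 0.54 in RAW264.7), Casp9 (-0.57 in L929, against 0.14 in NIH3T3 and 0.04 in RAW264.7), Bcl2l11 (-0.01 in RAW264.7, against 0.32 in NIH3T3 and 0.34 in L929) and Casp12 (-0.07 in NIH3T3, against 1.72 in L929 and 0.17 in RAW264.7), all as log2 changes from 1 pair of arrays per line. In 2 of the 5 the pattern depended on the scaling: Bcl2l11 was higher in all 3 lines with the arrays centred on their medians or after quantile normalization (0.02 in RAW264.7 under both), and Casp9 was lower in NIH3T3 too, at -0.13, with centred arrays.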

How the results depend on the processing

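Of 372 values computed under the alternatives, 338 kept their direction and their side of the threshold, or a count within 1.5 times, and 3 small changes within a line turned their sign (Casp9 in NIH3T3 to -0.13 with centred arrays, Bcl2l11 in RAW264.7 to 0.02 with centred arrays and after quantile normalization). The cause of the other changes was not tested. The mean log2 change of Xaf1 ran from 2.99 to 4.31 with a line left out and stayed past the threshold. Each of these fits had 1 residual degree of freedom. The fit without RAW264.7 used the same variance for every gene, so its calls do not measure a gene's own spread. Robust variances left it at 3.63 but ended the call (adjusted p = 0.264), and gave 0 of the 7 genes, 3 of the apoptosis-list genes, 1 of the 4 other genes with the shared stretch and 95 instead of 146 of all genes called higher. Robust variances with a trend gave 3.63 (adjusted p = 0.29), with 0, 3, 0 and 114 called in the same order. Without the block that pairs the arrays of a cell line, Xaf1 was at 3.63 (adjusted p = 0.817), and 0 of the 7 genes, 0 list genes, 0 genes with the shared stretch and 2 of all genes were called higher; Daxx (adjusted p = 0.199), Tnfsf10, Mlkl and Casp4 (adjusted p = 1 each) were among those lost. Quantile normalization left 3 list genes, without Tnfsf10 and Casp4, and 108 of all genes called higher. With a line left out, 0 to 5 of all genes were called lower, 5 of them without RAW264.7. Xiap ran from -0.24 to 0.05 and Casp9 from -0.27 to 0.09, so their signs turned. At a 2-fold mark Bak1 (2.03-fold) joined Xaf1 in L929, and at a 5-fold mark Xaf1 (4.82-fold) fell short in RAW264.7. The shares of all genes at these marks were not computed. The smaller change of Xaf1 in RAW264.7 was -1.88 with arrays centred on their medians and -2.20 after quantile normalization (adjusted p = 1 for both). Both of these fits also let the variance differ between genes. With 1 array per condition of a line, no change within a line has a measured error.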
